A study of Mus musculus with 8 samples.

Results

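The genes described here are the NF-kB subunits and their inhibitors: the 5 subunit genes Nfkb1, Nfkb2, Rel, Rela and Relb, the 4 inhibitor genes Nfkbia, Nfkbib, Nfkbid and Nfkbie, and Tnfaip3. They were taken by symbol from a table of counts for 52997 gene symbols. All 10 were in the table, and all 10 passed the filter on low counts, which left 11490 genes to be tested. The 8 RNA-seq libraries were made from liver CD4+ T cells of mice aged 5 or 10 days. Every mouse was Aire-deficient on a C57BL/6 background (the strain is labelled Aire- Foxp3 GFP+), so the 4 groups share the lack of Aire, the regulator of self-antigen expression in the thymus, and no Aire-sufficient group was analysed here. Live CD45+ TCRb+ cells without Foxp3 were sorted in 2 rounds, 1000 per library, as PD-1- or PD-1+, PD-1 being the inhibitory receptor encoded by Pdcd1. The 4 groups held 2 libraries each: PD-1- and PD-1+ cells at 5 days (numbered 2 and 3), and PD-1- and PD-1+ cells at 10 days (numbered 1 and 2). The labels do not say how Aire was disrupted, or whether a library came from 1 animal or from pooled animals, so each p-value reflects how much these libraries vary, which can be partly technical.

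NF-kB is a family of dimeric transcription factors that T cells hold ready in the cytoplasm. The subunits Rela, Rel and Relb carry activation domains, while Nfkb1 and Nfkb2 encode precursors that are processed into DNA-binding partners and whose unprocessed forms also retain other subunits. The classical IkB proteins, encoded by Nfkbia, Nfkbib and Nfkbie, mask the dimers until a kinase complex marks them for destruction, as happens after stimulation of the T cell receptor. Nfkbid encodes a nuclear IkB protein, and Tnfaip3 encodes A20, a ubiquitin-editing enzyme that shuts the pathway down. Several of these genes are themselves transcriptional targets of NF-kB, which closes feedback loops.

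Promoter sequences are shown for the members because NF-kB is known to act on several of its own genes. The 250 bases before each annotated start were read from RefSeq's promoter table (GRCm38.p6), which had 13 windows for 8 of the 10 genes; Nfkb1 and Relb matched no entry. Capitals mark matches to the 10-letter kappaB consensus on either strand, with overlapping matches running together, and the 5' end of each line is the end far from the start. The first line is the only Nfkbia window, at chr12:55492648-55492897 on the minus strand, with 19 bases between the match and the start. The second is Rel, at chr11:23770970-23771219 on the minus strand. The third is Nfkbie, at chr17:45555450-45555699 on the plus strand. The last is 1 of the Nfkbid windows, at chr7:30422156-30422405 on the plus strand, which held 2 distinct matching sites. The other Nfkbid windows, at chr7:30421481-30421730 and chr7:30423025-30423274, held none. The former ends just before the start of the gene in GENCODE M21, at 30421732, and the printed window lies inside the annotated gene.
Nfkbia: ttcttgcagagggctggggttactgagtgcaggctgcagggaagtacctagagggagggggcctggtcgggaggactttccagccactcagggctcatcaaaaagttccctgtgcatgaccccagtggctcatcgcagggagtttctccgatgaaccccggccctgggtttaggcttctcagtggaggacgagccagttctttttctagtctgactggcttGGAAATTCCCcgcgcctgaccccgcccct
Rel: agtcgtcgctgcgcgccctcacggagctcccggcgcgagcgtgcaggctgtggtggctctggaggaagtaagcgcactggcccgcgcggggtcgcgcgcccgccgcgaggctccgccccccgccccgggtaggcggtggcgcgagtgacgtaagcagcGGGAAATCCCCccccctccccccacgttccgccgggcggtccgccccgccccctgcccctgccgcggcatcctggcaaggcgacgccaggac
Nfkbie: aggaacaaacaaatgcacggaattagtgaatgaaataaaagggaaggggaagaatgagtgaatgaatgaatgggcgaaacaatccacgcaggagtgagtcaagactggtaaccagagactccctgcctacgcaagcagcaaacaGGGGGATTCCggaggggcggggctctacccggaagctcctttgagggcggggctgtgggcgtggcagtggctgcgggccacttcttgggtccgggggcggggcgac
Nfkbid: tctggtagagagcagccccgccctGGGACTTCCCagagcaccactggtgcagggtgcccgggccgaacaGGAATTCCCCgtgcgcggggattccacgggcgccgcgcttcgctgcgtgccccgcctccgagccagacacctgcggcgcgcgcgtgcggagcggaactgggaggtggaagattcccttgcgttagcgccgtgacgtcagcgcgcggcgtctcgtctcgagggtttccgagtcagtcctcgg

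For Nfkb2 and Tnfaip3 only the 30 bases around each site are shown, because annotated untranslated exon bases lie in their windows. Those of the first of 3 Nfkb2 windows are at chr19:46304689-46304718 and chr19:46304707-46304736 on the plus strand, with 28 bases and 1 base between the match and the start; each of the other 2 Nfkb2 windows held 1 further site. Those of Tnfaip3 are at chr10:19015516-19015545 and chr10:19015411-19015440 on the minus strand, with 115 and 2 bases in between; a second Tnfaip3 window held none.
Nfkb2, far site: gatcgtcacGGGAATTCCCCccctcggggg
Nfkb2, near site: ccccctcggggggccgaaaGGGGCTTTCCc
Tnfaip3, far site: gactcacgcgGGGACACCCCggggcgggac
Tnfaip3, near site: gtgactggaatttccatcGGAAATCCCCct

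At least 1 match was found in 8 of the 13 windows, belonging to 6 of the 8 genes, whereas 7.25% of all 32851 windows in the table and 8.23% of its 27025 genes held one. The windows of Rela and Nfkbib held none. The members' windows were 46.4 to 77.6% G and C, against a median of 52.4% over all windows, and the part of base composition in the number of matches was not tested. With a looser pattern on both strands (3 G, any 5 bases, then 2 C), 12 of the 13 windows and 45.8% of all windows matched. These matches describe letters and are not measured binding sites.

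Library totals ranged from 1473216 to 3019551 counts, and the members were well covered, with 33 counts (Nfkbie) to 4101 counts (Nfkbia) in any library. Pdcd1 had 1 to 5 counts in each PD-1- library and 564 to 1953 in each PD-1+ library. The sorted cells carried T cell transcripts throughout, with 437 to 1256 counts of Cd3e and 1101 to 4279 of Cd4. Myeloid cells also express many NF-kB genes strongly. Summed levels in this paragraph are CPM (counts relative to library size) on each library's raw total, without TMM scaling. All other CPM values are TMM-scaled. Of 12 macrophage and Kupffer cell genes, 5 could be tested (0 higher, 1 lower). The summed level of the 12 was 32.8 to 83.8 CPM in PD-1- and 38.4 to 57.3 in PD-1+ libraries. Lyz2 had 0 to 4 counts and Cd14 had 0 to 3 in any library. The summed level of 8 hepatocyte genes was 11.1 to 20.9 CPM in PD-1- and 25.4 to 69.5 in PD-1+ libraries (3 of 4 tested genes higher). Some other lineage markers moved the other way. Both tested genes of 6 NK and innate lymphoid markers were lower (1.66 to 23.7 CPM summed in PD-1-, 1.35 to 5.50 in PD-1+ libraries), and Klra4 was at 0 throughout. Of 2 CD8 T cell genes (30.01 to 48.7 and 5.42 to 27.1 CPM summed), Cd8b1 was lower (-1.92 ± 0.38) and Cd8a was not called (0.62 ± 0.70). The 1 tested gene of 8 erythroid markers, Gata1, was lower (-3.63 ± 0.59), with sums of 11.5 to 30.5 and 2.71 to 5.28 CPM. For B cells 0 of 5 tested genes were called and for dendritic cells 0 of 2, while 0 of 6 neutrophil genes could be tested. The part of these cells in the results below was not tested. Genes of stress and tissue dissociation, a class to which Nfkbia and Tnfaip3 are often counted, summed to 4583 to 7284 CPM in PD-1- and 7282 to 11095 in PD-1+ libraries; 6 of the 16 were higher in PD-1+ cells, 2 lower and 8 not called, with Junb higher (1.35 ± 0.13 on the log2 scale), Jun lower (-1.45 ± 0.24) and Fos not called (0.26 ± 0.18). The part of handling stress in the results below was not tested. Both 5-day libraries numbered 3 had 1 or 5 counts of Xist, which is expressed from an inactivated X, against 698 to 1842 in the other 6, so sex and age were partly mixed.

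Over both ages, each of the 10 NF-kB genes had its higher level in the PD-1+ cells, by 1.74-fold (Rela) to 4.19-fold (Nfkb2). For each of the 10, the lowest PD-1+ library was above the highest PD-1- library, as was so for 17.2% of all tested genes. Differences are given as log2 fold changes with standard errors from edgeR's quasi-likelihood fit to all 11490 genes, called at a Benjamini-Hochberg adjusted p below 0.05. The background was broad: 41.4% of tested genes were called, 21.9% of all tested genes being higher in PD-1+ cells, and 26.3% were called higher among the 7565 better-expressed genes (mean log2 CPM of 4 or more). The median log2 fold change was 1.31 over the 10 members and -0.01 over all tested genes. In bulk RNA a larger share of cells with a transcript and more transcript per cell cannot be told apart.

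**Figure D1:**
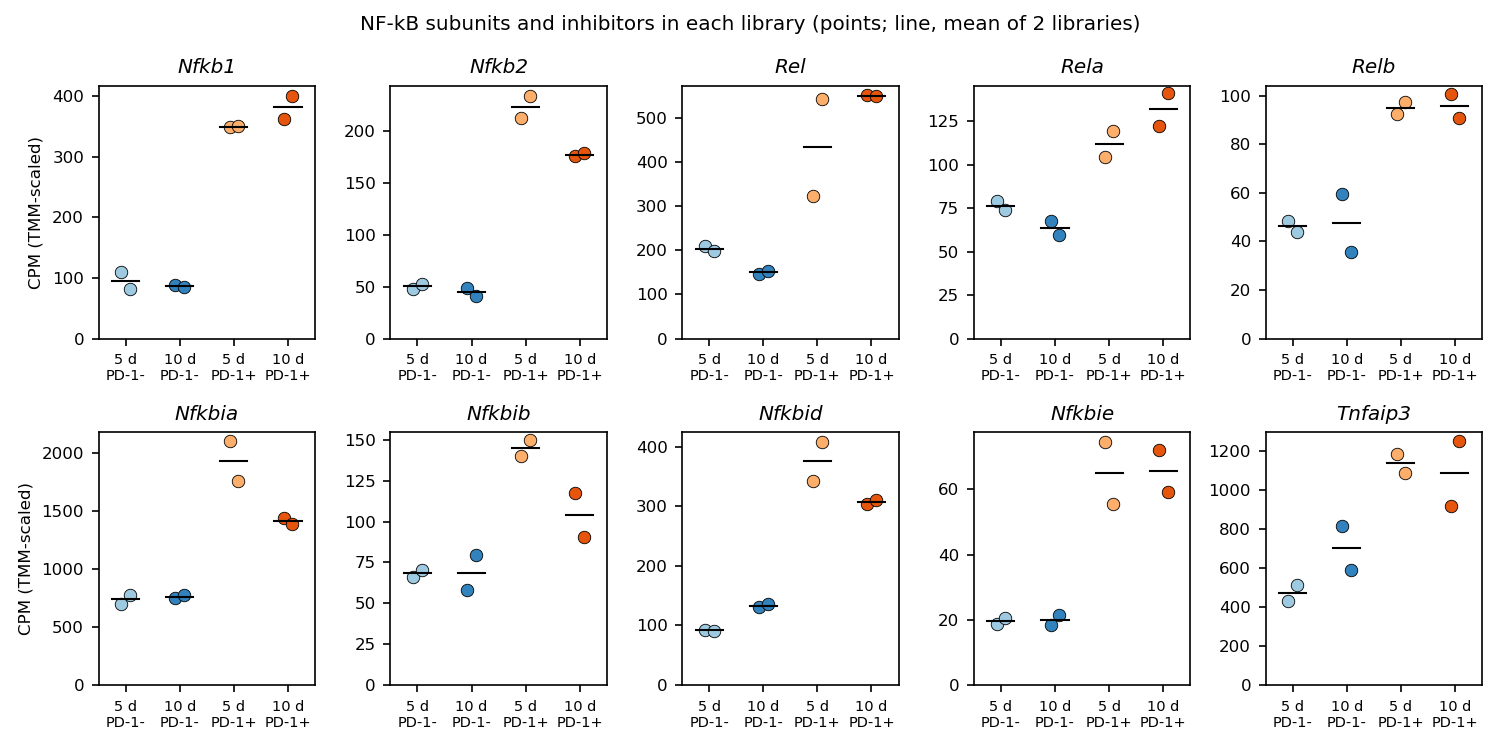
Level of each NF-kB subunit and inhibitor gene (vertical axis, CPM, TMM-scaled, from 0) in the 8 libraries, grouped by age in days and PD-1 sort. Points are libraries and lines the mean of 2; every PD-1+ point lies above every PD-1- point of the same gene, by the smallest margin for Tnfaip3 and Nfkbib.

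Among the subunits the precursor genes differed most. Nfkb1 was at 110 and 81.2 CPM in the 5-day PD-1- libraries 2 and 3 and at 89.1 and 85.2 CPM in the 10-day PD-1- libraries 1 and 2. In PD-1+ cells it was at 349 and 350 CPM at 5 days and 363 and 401 CPM at 10 days, so the nearest libraries of the populations were 3.17-fold apart. The difference was 2.00 ± 0.14 (edgeR adjusted p = 5.17e-08). Nfkb2 was at lower CPM, with 48.0, 52.2, 48.3 and 41.0 CPM in the PD-1- libraries in the same order. Its PD-1+ libraries were at 212 and 233 CPM at 5 days and 176 and 179 CPM at 10 days, which put the 5-day pair above the 10-day pair. The difference between the populations was 2.07 ± 0.14 (edgeR adjusted p = 3.33e-08), and 5.13% of all tested genes had a higher log2 fold change than Nfkb2.

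Rel, the subunit c-Rel through which T cell receptor signals drive cytokine genes, was at 208 and 198 CPM in 5-day and 147 and 153 CPM in 10-day PD-1- cells. Its PD-1+ libraries were uneven at 5 days, with 323 CPM in library 2 and 542 CPM in library 3, and even at 10 days, with 551 and 548 CPM. The PD-1 difference was 1.48 ± 0.19 (edgeR adjusted p = 3.84e-05). Rela, which encodes the p65 subunit of the commonest dimer, moved least of the 10 genes, with means of 70.1 ± 8.27 CPM (PD-1-) and 122 ± 15.1 CPM (PD-1+; SD, n = 4 libraries; 0.80 ± 0.16, edgeR adjusted p = 8.89e-04). Relb, the partner of the processed Nfkb2 product in the alternative pathway, was at 46.9 ± 9.96 and 95.5 ± 4.47 CPM (1.01 ± 0.18, edgeR adjusted p = 3.48e-04). Relb therefore rose by 2.01-fold where its partner Nfkb2 rose by 4.19-fold.

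Because the 5 subunits did not move by equal amounts, their proportions differed between the populations. Levels of different genes are compared here only per kilobase of exon, using the union of exons in GENCODE M21. On that scale Rela made up 29.4 to 30.1% of the summed subunit level in the 4 PD-1- libraries and 17.9 to 21.4% in the 4 PD-1+ libraries. Nfkb2 ran the other way, from 12.2 to 14.3% in PD-1- to 18.1 to 26.2% in PD-1+ libraries, and Nfkb1 from 8.42 to 10.8% to 13.4 to 16.4%. The share of Rel overlapped between the populations, at 26.2 to 33.2% and 24.5 to 35.5%. Relb went from 14.1 to 20.5% to 10.9 to 13.5%. These shares depend on the gene lengths used, most of all for Nfkb1, whose exons span 12061 bases in union but 4149 in the longest transcript; with longest transcripts the mean share of Nfkb1 was 22.5% in PD-1- and 31.6% in PD-1+ cells, and that of Rela 26.3% and 16.0%.

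**Figure D2:**
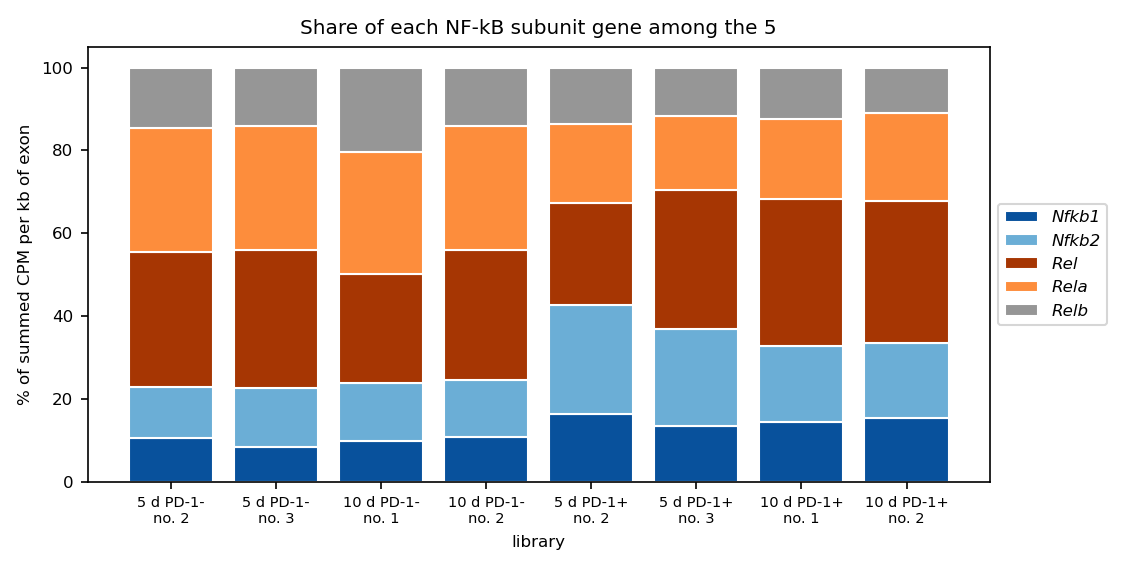
Share of each subunit gene (vertical axis, percent of the summed CPM per kilobase of exon of the 5 subunit genes) in each of the 8 libraries (horizontal axis; the number is the library's number in the labels). Rela takes 29.4 to 30.1% of each PD-1- bar and 17.9 to 21.4% of each PD-1+ bar, while the segments of Nfkb1 and Nfkb2 together are wider in each PD-1+ bar.

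The inhibitors rose along with the subunits. Nfkbia, which encodes IkB alpha, the fast-acting inhibitor that NF-kB itself induces, was by far the most abundant member per kilobase, at 467 ± 22.9 CPM per kilobase in PD-1- and 1040 ± 208 in PD-1+ cells (SD, n = 4). Its CPM values were 701, 780, 750 and 779 in the PD-1- libraries, which hardly varied, and 2111, 1759, 1440 and 1387 in the PD-1+ libraries, with the 5-day pair above the 10-day pair. The PD-1 difference was 1.14 ± 0.14 (edgeR adjusted p = 1.40e-05). Nfkbie, which encodes IkB epsilon, was the least abundant per kilobase, at 6.50 ± 0.46 and 21.4 ± 3.11 CPM per kilobase. It had the largest fold of the classical inhibitors, at 18.8, 20.4, 18.5 and 21.5 CPM in PD-1- libraries and 74.6, 55.4, 71.9 and 59.0 CPM in PD-1+ libraries (1.73 ± 0.20, edgeR adjusted p = 7.29e-06). The PD-1- values lay close together, and the nearest PD-1+ library was 2.58-fold higher.

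Nfkbib, which encodes IkB beta, had a narrow margin. It was at 66.1, 70.4, 58.3 and 79.4 CPM in PD-1- libraries and 140, 150, 118 and 90.7 CPM in PD-1+ libraries (0.85 ± 0.17, edgeR adjusted p = 9.24e-04). The nearest libraries, both the 10-day ones numbered 2, were 1.14-fold apart. The exons of Nfkbib overlap those of Sirt2 and Ccer2 on the opposite strand, and those of Nfkb2 overlap Psd and an unnamed model; the strand setting of the counting is unknown here, so reads of these pairs cannot be told apart.

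Nfkbid, a nuclear IkB gene, was at 92.7 and 91.4 CPM in 5-day and 131 and 136 CPM in 10-day PD-1- cells. The ages therefore did not overlap in PD-1- cells. In PD-1+ cells it was at 343 and 408 CPM at 5 days and 303 and 311 CPM at 10 days. The PD-1 difference was 1.61 ± 0.17 (edgeR adjusted p = 2.49e-06). Tnfaip3, the enzyme A20, was at 433, 514, 815 and 590 CPM in the PD-1- libraries and 1184, 1087, 916 and 1253 CPM in the PD-1+ libraries (0.94 ± 0.17, edgeR adjusted p = 5.06e-04). The highest PD-1- library, 10-day library 1, came within 1.12-fold of the lowest PD-1+ library, which carries the same age and number. Per kilobase Tnfaip3 (154 ± 20.3 CPM per kilobase) and Nfkbid (146 ± 20.3) were the next most abundant members after Nfkbia in PD-1+ cells and did not differ beyond their spread.

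The remaining order per kilobase in PD-1+ cells was Rel (65.8 ± 15.0 CPM per kilobase), Nfkbib (57.4 ± 12.1), Nfkb2 (43.6 ± 6.07), Rela (39.7 ± 4.92), Nfkb1 (30.3 ± 2.00), Relb (24.6 ± 1.15) and Nfkbie (21.4 ± 3.11). The ranges of neighbours in that order overlapped, except that Nfkb1 (29.0 to 33.2) met neither Rela above it (34.0 to 46.0) nor Relb below it (23.4 to 25.9). In PD-1- cells Rel (23.6 ± 4.19) and Rela (22.8 ± 2.69) were level, so the gap between them in PD-1+ cells came with the larger fold of Rel. With the longest transcript as the length, Nfkb1 moved from rank 8 to rank 4 in PD-1+ cells.

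At each age taken alone, all 10 members were again called higher in PD-1+ cells, where 34.3% of all genes were called (17.6% higher) at 5 days and 29.3% (16.4% higher) at 10 days. The members' median log2 fold change was 1.32 at 5 days and 1.12 at 10 days, against -0.03 and 0.01 over all genes. At 5 days Nfkb2 (2.16 ± 0.18), Nfkbid (2.03 ± 0.16) and Nfkb1 (1.86 ± 0.17) led, and Rela was last (0.55 ± 0.19, edgeR adjusted p = 0.0343). At 10 days Nfkb1 (2.13 ± 0.17), Nfkb2 (1.98 ± 0.18) and Rel (1.88 ± 0.20) led, while Nfkbib (0.61 ± 0.21, edgeR adjusted p = 0.0354) and Tnfaip3 (0.62 ± 0.18, edgeR adjusted p = 0.0165) were last. The small effects rested on few libraries. The 5-day call of Rela was lost on leaving out any of the 4 libraries of that age (adjusted p = 0.0884, 0.130, 0.0584 and 0.173 without PD-1- 2, PD-1- 3, PD-1+ 2 and PD-1+ 3). That of Nfkbib at 10 days was lost without PD-1- 1 (0.40, adjusted p = 0.300), PD-1+ 1 (0.42, adjusted p = 0.271) or 5-day PD-1+ 3 (adjusted p = 0.0513), that of Tnfaip3 without 10-day PD-1- 2 (0.41, adjusted p = 0.144) or PD-1+ 2 (0.39, adjusted p = 0.151), and that of Relb at 10 days without PD-1- 2 (0.69, adjusted p = 0.0639). Rel at 5 days lost its call (0.66, adjusted p = 0.0501), as did Relb (0.96, adjusted p = 0.0621) and Rela (0.43, adjusted p = 0.339), when both 5-day libraries numbered 3 were left out, which leaves 1 library per population at that age.

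**Figure D3:**
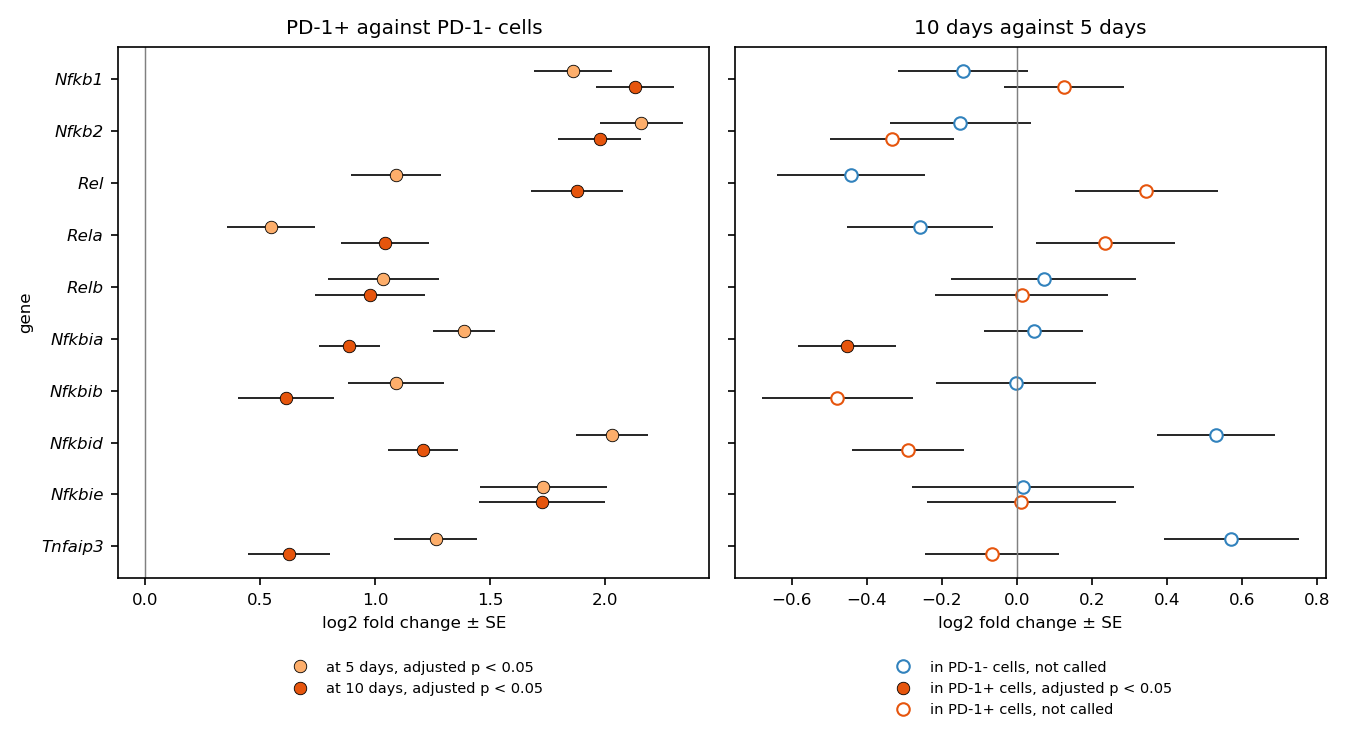
Log2 fold change with standard error (horizontal axes) of each member (vertical axis) of the PD-1+ over the PD-1- sort, by age (left) and for 10 against 5 days in each population (right). Filled points passed an adjusted p of 0.05; all 20 points on the left are filled and right of 0, and on the right Nfkbia in PD-1+ cells is the filled point.

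Whether the PD-1 difference changed between 5 and 10 days was tested with the interaction of age and PD-1. By edgeR's quasi-likelihood test, 0 of the 10 members passed, while 2.12% of all genes were called; DESeq2 also called 0 members. At an unadjusted p below 0.05 there were 4 of the 10 members and 15.0% of all genes. The nearest was Nfkbid, whose PD-1 difference was smaller at 10 than at 5 days by 0.82 ± 0.22 on the log2 scale (interaction -0.82, edgeR adjusted p = 0.0602). It was called with the replicate numbers as a block (-0.81, adjusted p = 0.0387), where 483 genes were called in place of 244, and with RLE scaling (-0.85, adjusted p = 0.0484), but not under the other 13 alternatives (adjusted p up to 0.319). Nfkbia (-0.50 ± 0.19, adjusted p = 0.192) and Tnfaip3 (-0.64 ± 0.25, adjusted p = 0.238) had estimates of the same sign. Rel had the opposite sign, 0.79 ± 0.27 (adjusted p = 0.162), an estimate that turned on the 5-day PD-1+ pair: it was called at 1.18 without PD-1+ library 3 (adjusted p = 0.0263), at 1.21 without both 5-day libraries numbered 3 (adjusted p = 0.0330) and at 0.85 with no low-count filter (adjusted p = 0.0284), and it was 0.43 without PD-1+ library 2 (adjusted p = 0.556). The other 6 members lay between -0.48 and 0.49.

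The ages were also compared within each population. In PD-1- cells 0 of 10 members were called between 10 and 5 days by edgeR, and 0.270% of all genes were called; DESeq2 also called 0 members. At an unadjusted p below 0.05 there were 3 members and 10.6% of all genes. Those 3 were Nfkbid (0.53 ± 0.16, adjusted p = 0.196) and Tnfaip3 (0.57 ± 0.18, adjusted p = 0.246), with higher estimates at 10 days, and Rel (-0.44 ± 0.20, adjusted p = 0.443), with a lower one. Tnfaip3 passed with no low-count filter (0.59, adjusted p = 0.0158), and its estimate ranged from 0.32 without 10-day PD-1- library 1 (adjusted p = 0.799) to 0.79 without library 2 (adjusted p = 0.129). In PD-1+ cells, where 14.4% of genes were called and 6.98% were lower, Nfkbia alone of the 10 was called, falling from 1935 ± 249 to 1413 ± 37.9 CPM (SD, n = 2; -0.45 ± 0.13, adjusted p = 0.0291). This call was lost without 5-day PD-1+ library 2 (-0.34, adjusted p = 0.286), 10-day PD-1+ library 1 (-0.48, adjusted p = 0.0894) or library 2 (-0.43, adjusted p = 0.113). Nfkbib was at 145 ± 7.01 and 104 ± 19.0 CPM in the same comparison (-0.48 ± 0.20, adjusted p = 0.130), and the other 8 members lay between -0.33 and 0.35. The age and interaction comparisons use the same libraries as the PD-1 comparisons, and sex was not equal between the ages.

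The 10 genes followed each other across the 8 libraries. Pearson's r between members, on log2 CPM, ranged from 0.70 (Nfkbib with Tnfaip3) to 0.98 (Nfkb1 with Nfkb2) over the 45 pairs, with a median of 0.90. The libraries fall into PD-1- and PD-1+ clusters, so these values largely restate the PD-1 difference. Of the 30 closest genes (3 per member), 1 was itself a member. The genes most like Nfkb1 among 7056 compared were Hk1 (r = 0.996) and Runx2 (r = 0.996), those most like Nfkbia were Anxa2 and Slc25a3 (r = 0.993 and 0.992), and those most like Nfkbie were Tubgcp2 and Rnh1 (both r = 0.998). Rel had Phtf2 (r = 0.994), Sla (r = 0.988) and Rela (r = 0.976). Tnfaip3 had the loosest matches, with Polr2b (r = 0.973), Metap1 (r = 0.955) and the receptor-induced Nr4a1 (r = 0.952).

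The upstream kinases described here were picked because they were called, so their directions do not describe the list as a whole. Of them, 3 were lower in PD-1+ cells and 1 was higher. Over all tested genes, 21.9% were called higher and 19.6% lower. Ikbke, an IKK-related kinase, was at 489 ± 70.2 CPM (PD-1-) and 134 ± 22.7 CPM (PD-1+; -1.86 ± 0.16, edgeR adjusted p = 3.24e-07). Ikbkb, the catalytic kinase that marks classical IkB proteins for destruction, was lower (-1.02 ± 0.15), as was Prkcq, a kinase activated downstream of the T cell receptor (-0.77 ± 0.13). Map3k8, the kinase Tpl2, which is held by the Nfkb1 precursor, was higher, at 13.7 ± 6.28 and 105 ± 35.1 CPM (2.82 ± 0.31, adjusted p = 1.83e-05).

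Adaptors and receptors were divided, with more genes called higher than lower. Over all tested genes, 21.9% were called higher and 19.6% lower. Of 13 TRAF and IAP adaptors, 7 were higher, 1 lower and 5 not called. Traf1, an adaptor of TNF receptors and a known NF-kB target, was at 412 to 424 CPM in the 4 PD-1+ libraries against 26.6 to 44.9 CPM in PD-1- libraries (3.54 ± 0.17, adjusted p = 1.40e-09). Traf4 was the lower gene (-0.99 ± 0.35, adjusted p = 0.0396), a call kept when 5-day PD-1- 3 or 5-day PD-1+ 2 was left out and lost without any other library (adjusted p = 0.0672 to 0.119). Of 20 receptors that signal to NF-kB, 16 could be tested; 8 were higher, 4 lower and 4 not called. The TNF receptors Tnfrsf4 (OX40, 4.90 ± 0.28) and Tnfrsf18 (GITR, 3.15 ± 0.20) and the IL-18 receptor chains Il18rap (4.59 ± 0.25) and Il18r1 (2.32 ± 0.21) were higher. Tlr1, a chain of a bacterial lipoprotein receptor (-1.97 ± 0.26), and Tnfrsf1a, the first TNF receptor (-1.11 ± 0.27), were lower. Tnfrsf1b, by contrast, was higher (3.28 ± 0.39). Of 8 ligands, 7 could be tested, with 2 higher, 1 lower and 4 not called, near the shares over all genes. Tnfsf14, the ligand LIGHT, was higher (3.21 ± 0.57), and Ltb, which encodes lymphotoxin beta, was lower (-0.68 ± 0.20, adjusted p = 0.0174; adjusted p = 0.0731 and 0.0727 without 5-day PD-1+ 2 and PD-1+ 3).

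Other negative regulators of the pathway went both ways, near the shares over all genes. Of 18 further negative regulators, 3 were higher, 5 lower and 10 not called, with a median of -0.05. Over all tested genes, 21.9% were called higher and 19.6% lower, with a median of -0.01. Cyld, a deubiquitinase that acts beside A20 (-0.59 ± 0.14), Tax1bp1, an A20 adaptor (-0.68 ± 0.12), and Rc3h1, the RNA-binding protein Roquin (-1.11 ± 0.13), were lower. Tnip3, an A20-binding protein, was higher, at 24.2 ± 25.0 CPM in PD-1+ cells against 0.467 ± 0.313 CPM in PD-1- cells (5.44 ± 0.71). Its PD-1+ libraries were at 5.15 and 7.64 CPM at 5 days and 59.5 and 24.6 CPM at 10 days. Of the 3 other nuclear IkB genes, Nfkbiz was higher (1.91 ± 0.29, adjusted p = 7.41e-04), as was Bcl3 (1.32 ± 0.46, adjusted p = 0.0348; kept without 5-day PD-1- 2 or 10-day PD-1- 2 and lost without any other library, adjusted p = 0.0556 to 0.0683), while Nfkbil1 was not called. Nfkbiz was at 711 and 695 CPM in 5-day and 408 and 324 CPM in 10-day PD-1+ cells, and its interaction, of the same sign as that of Nfkbid, was called (-1.41 ± 0.26, adjusted p = 0.00903).

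Of 26 genes listed as NF-kB targets, 24 could be tested; 14 were higher in PD-1+ cells, 1 was lower and 9 were not called, with a median of 2.37. Cd83, an activation marker, was at 1.26 ± 1.49 and 103 ± 45.1 CPM (6.56 ± 0.37, adjusted p = 7.33e-09). Gadd45b, a stress-response gene, was at 78.0 ± 22.5 and 498 ± 207 CPM (2.62 ± 0.15), and Icam1, the adhesion ligand of LFA-1, at 116 ± 13.9 and 362 ± 46.5 CPM (1.64 ± 0.14). Bcl2a1b, a survival gene of the Bcl2 family, was higher (4.86 ± 0.30), although it has near-identical copies whose reads the counting could divide. Cflar, an inhibitor of death receptor signalling, was the lower gene, at 198 ± 19.8 and 93.0 ± 7.54 CPM (-1.09 ± 0.13, adjusted p = 1.16e-05). Many of these targets also answer to other activation pathways, and each list's count stands against the 21.9% of all genes called higher and the 19.6% called lower.

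**Figure D4:**
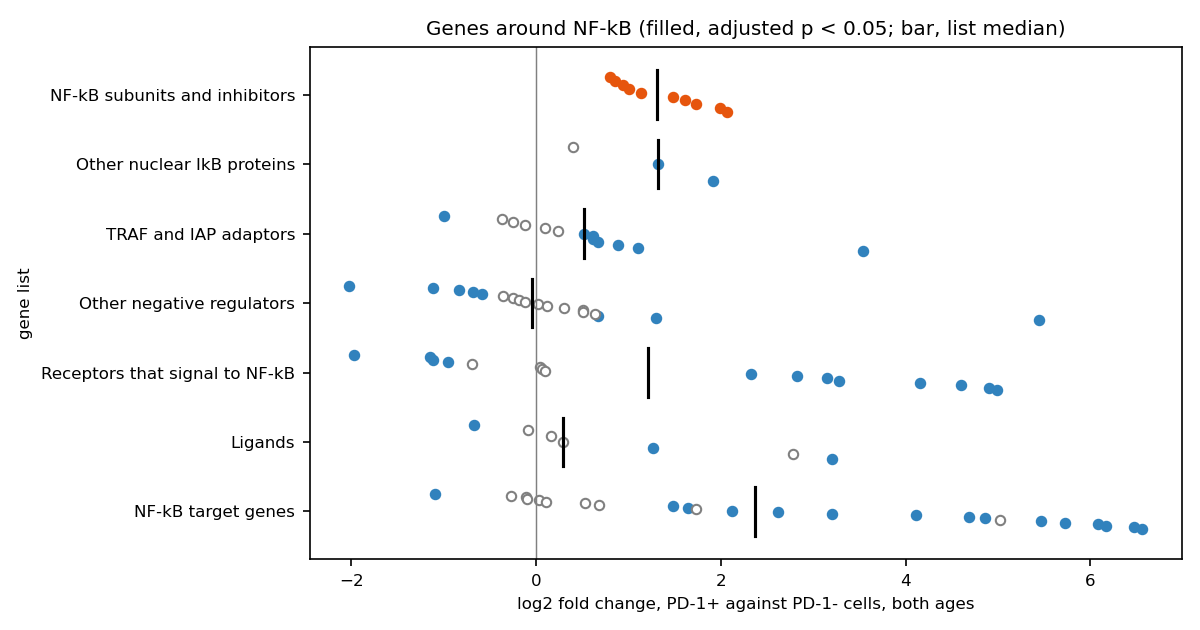
Log2 fold change of PD-1+ against PD-1- cells over both ages (horizontal axis) for each tested gene of the members and 6 surrounding lists (vertical axis). Filled points passed an adjusted p of 0.05 and bars are list medians. The members lie between 0.80 and 2.07. The other nuclear IkB genes also lie right of 0, while each of the remaining lists spreads to both sides of 0.

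The members lie on 7 chromosomes (GENCODE M21 on GRCm38). Nfkb1 is on chromosome 3 from 135584655 to 135691547, Rel on chromosome 11 from 23736847 to 23770970 and Relb on chromosome 7 from 19606217 to 19629438. Nfkb2 is on chromosome 19 from 46304320 to 46312385, and Rela on the same chromosome from 5637483 to 5648130. Nfkbia is on chromosome 12 from 55489410 to 55492647, Nfkbie on chromosome 17 from 45555703 to 45563169 and Tnfaip3 on chromosome 10 from 19000910 to 19015657. Nfkbib (28758251 to 28767512) and Nfkbid (30421732 to 30428746) are both on chromosome 7.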

How the data were processed

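The authors deposited raw counts by gene symbol for the 8 libraries. Per the submitters' processing notes, STAR 2.5.4, featureCounts and mm10 were used; which annotation, strand setting and multi-mapping rule applied is not given in the sources used here. Per the labels' protocols, oligo(dT)-primed cDNA was tagmented and sequenced as paired reads of 25 bases. Columns were matched to samples by title (0 unmatched).

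The members, gene lists and tests were chosen with earlier results of these data known. Genes were kept by filterByExpr, scaled by TMM and tested with robust quasi-likelihood F tests in edgeR 4.0.16 (R 4.3.3), with p-values adjusted over all tested genes. The effect over both ages came from additive terms for age and PD-1; a model of the 4 groups gave the others. Each standard error is the absolute log2 fold change over the root of F. On simulated data, the test over both ages recovered 59.6% of 2-fold and 93% of 4-fold changes, with 13 false calls among 10883 genes. Far fewer genes were changed there than were called in the data, so these rates need not hold for the data. Named genes were the members and, per list, up to 4 called genes with the smallest p in each direction, not all of which are printed. Tnfrsf1b was added beside Tnfrsf1a. Likeness took the 3 highest correlations among genes with a mean log2 CPM (prior count 2) of at least 4, unnamed models left out. Same-numbered libraries of 1 age deviated together (correlation 0.185 at 5 days and 0.235 at 10 days over 7254 genes), so a fit with pairs as a block was also run. Other alternatives were upper-quartile and RLE scaling, no filter (1 count in any library) or a stricter one (5 CPM in 2 libraries), DESeq2 1.42.0, and leaving out libraries. No protein sequences were used. The list of upstream kinases is not reported here as a whole.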

Additional observations from a re-analysis of the deposited data

Results flagged for a closer look

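Rel in the PD-1+ libraries stood out for 1 far sample: 5-day PD-1+ library 2, at 323 CPM, lay apart from the other PD-1+ libraries at 542 to 551 CPM, with a gap of 0.958 of the whole range of the 4, above the 95% critical value of Dixon's test. A gap above that critical value arises by chance in about 1 in 20 groups drawn from a single distribution. Here 20 groups (10 genes in each of the 2 populations) were looked at. Each group pooled 2 ages, so a single distribution need not hold. Without that library the PD-1 difference of Rel at 5 days was 1.45 on the log2 scale, against 1.09 with it. Total counts of that library were 2215852, within the range of the others, and it had the fewest genes detected of the 8 libraries (16790, against 17693 to 20424). The part of this in the value of Rel was not tested.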

How the results depend on the processing

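Over both ages, the 10 members kept their direction and their call under all 15 alternatives; Nfkb1 ranged from 1.91 to 2.12 and Rela from 0.71 to 0.90. With the replicate numbers as a block, the members called for the interaction were 1 (Nfkbid) and the genes called 483. The block also ended the call of Tnfsf8 over both ages (adjusted p = 0.0622). It changed no other call over both ages among the members and the list genes picked by smallest p. RLE scaling gave 1 member called for the interaction. With no low-count filter, genes called were 469 for the interaction and 180 for age in PD-1- cells, with 1 member called in each, and 0 members were called for age in PD-1+ cells. DESeq2 called 75 genes for age in PD-1- cells. Without both 5-day libraries numbered 3, genes called were 2561 for PD-1 at 5 days, 148 for the interaction (1 member) and 89 for age in PD-1- cells, and 2 members were called for age in PD-1+ cells. Rela at 5 days also lost its call with upper-quartile scaling (adjusted p = 0.0689), no filter (0.0841) and DESeq2 (0.0595), as did Nfkbib at 10 days with upper-quartile scaling (0.0705) and DESeq2 (0.0684). Leaving out 1 library gave 2328 to 3951 genes called for PD-1 at 5 days, 2195 to 3527 at 10 days, 92 to 282 for the interaction (0 or 1 member), 5 to 90 for age in PD-1- cells and 550 to 1839 for age in PD-1+ cells (0 to 2 members). A lone library left in a group was assumed to vary like the others. The cause of these shifts was not tested. The looser promoter pattern matched 45.8% of windows. With 2 libraries a group, the test at 5 days alone recovered 29.8% of simulated 2-fold changes. The simulation changed far fewer genes than were called in the data, drawn from all genes that passed the filter. Its recovery therefore need not hold for the members. A difference that was not called may still have been missed.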
